A study of Mus musculus with 70 samples.

Results

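Cytosolic ribosomal protein genes were followed in CD45- and CD45+ cells sorted from mouse melanomas after sham or histotripsy ablation. Members were gene symbols that begin with Rpl or Rps and a digit, or are Rplp0, Rplp1 or Rplp2, leaving out pseudogene symbols that contain "-ps" and the Rps6k kinases, with a total of at least 100 counts over all libraries of a table. Of 93 symbols of this form, 85 reached this total in at least 1 of the 4 tables and 82 in all 4, out of 55487 named lines per table. There were 83 members in each CD45- table and 84 in each CD45+ table, and 51 of the 85 have a name of the large (60S) subunit and 34 of the small (40S) subunit. Measured counts chose the members, so which genes reached the total is a description.

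A cytosolic ribosome joins a small subunit, which holds the mRNA and its decoding site, to a large subunit, which forms the peptide bonds and carries the exit tunnel. Each protein is needed at about the same number of copies per ribosome, and the mRNAs of most of them begin with a C followed by a run of C and T letters at the cap, the terminal oligopyrimidine (TOP) motif, through which growth signaling by mTOR sets their translation together. Several members also have roles outside the ribosome. Rpl5 and Rpl11 bind Mdm2, the ubiquitin ligase of p53, and Rps6 is the protein whose phosphorylation is used as a readout of mTOR activity. Rps19bp1, which the symbol rule takes in, binds Rps19 and is no ribosomal protein, and some ribosomal proteins, such as Rpsa, Fau and Rack1, lie outside the rule.

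Tumors were grown from B16F10 cells, a C57BL/6 melanoma line, in both flanks of C57BL/6 mice of both sexes, 6 to 8 weeks of age, for which the sources used here name no engineered allele. On day 9 or 10 after inoculation, a tumor on 1 flank received sham ablation or partial histotripsy, which breaks up tissue with focused ultrasound pulses, in which part of the tumor was left intact. Control (CON) libraries came from sham-ablated mice, HT libraries from the histotripsy-treated tumor, and ABS libraries from the untreated tumor on the opposite flank of a treated mouse. On day 3 there were 4 CON, 7 HT and 7 ABS libraries of CD45- cells and 4, 6 and 7 of CD45+ cells, and on day 7 there were 11, 3 and 4 of CD45- cells and 10, 3 and 4 of CD45+ cells. Mice were not randomized. The labels do not give the sex of a library's mouse or which HT and ABS tumors shared a mouse, so p-values measure the spread between these libraries. Nor do they say which CD45+ and CD45- libraries were sorted from the same tumor, and the fits over both fractions treat such libraries as independent.

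The sort was checked against its marker. Ptprc, which encodes CD45, was at 0 to 1.48 CPM (counts scaled to a common library total) in the 36 CD45- libraries and at 651 to 1252 CPM in the 34 CD45+ libraries. The melanoma gene Pmel was at 2409 to 4124 CPM in CD45- libraries and at 2.76 to 249.97 CPM in CD45+ libraries. CD45- cells are all cells without the marker and not melanoma cells alone. Libraries held 887798 to 3820705 counts, and a gene annotated as rRNA, CT010467.1, took 5.71% to 16.0% of them.

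The starts of 7 members are printed to show the TOP letters, which all of them but Rps27l have at the printed start. RefSeq promoter sequences of GRCm38.p6 were found for 64 of the 85 members, with 76 annotated starts. Each line gives 10 bases before the annotated start and 20 bases from it, 5′ to 3′ on the strand of the gene, and capitals mark the unbroken run of C and T letters that opens with a C at the start. Rpl35a has 3 annotated starts and Rps27l has 2, and where starts differed the one with the longest run was printed.
Rps6, a 40S protein, chr4:86857348-86857377, minus strand: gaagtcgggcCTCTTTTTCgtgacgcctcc
Rpl35a, a 60S protein, chr16:33056472-33056501, plus strand: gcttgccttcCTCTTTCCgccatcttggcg
Rpl15, a 60S protein, chr14:18270967-18270996, minus strand: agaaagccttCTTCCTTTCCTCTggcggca
Rplp2, a protein of the 60S stalk, chr7:141447641-141447670, plus strand: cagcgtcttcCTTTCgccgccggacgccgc
Rps27, a 40S protein, chr3:90213629-90213658, minus strand: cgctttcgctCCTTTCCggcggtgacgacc
Rps27rt, a retrotransposed copy of Rps27 on another chromosome, chr9:114982720-114982749, minus strand: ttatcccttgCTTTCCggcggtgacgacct
Rps27l, the diverged paralog of Rps27, chr9:66946076-66946105, plus strand: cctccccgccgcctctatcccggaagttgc

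A C at the annotated start that opens a run of at least 5 C or T letters was found at 15 of the 76 member starts (19.7%) and at 823 of the 32851 starts of all genes (2.51%). Such a run began within 10 bases on either side of the start at 47.4% of member starts and at 25.5% of all starts. The letters GGAAG, read on both strands, lay in the 300 bases around 92.1% of member starts and 71.4% of all starts. In the printed lines, the run was longest in Rpl15, with 13 letters, and Rps27l had no such run at its printed start. Rps27 and Rps27rt shared 38 unbroken bases of the 50 after their starts and no stretch above 10 bases before them, and how reads that match both were counted is not given in the sources used here.

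QuantSeq reads the 3′ end of each transcript about once, so levels are given as CPM without a length term. Rpl37, Rps20, Rps29, Rplp1 and Rps21 had the highest mean levels over the 70 libraries, at 2574, 2469, 2377, 2267 and 1881 CPM. Rpl15 was far lower, at a mean of 38.0 CPM, Rps6 at 18.8 CPM and Rpl22l1, the paralog of Rpl22, at 6.41 CPM. Reads of near-identical copies bear on these levels. The 305 "-ps" symbols held 0.49% to 1.22% of the counts of a library, and in 10 of the 60 members with such a copy the parent line held under 50% of the counts of its family. The parent share was 4.26% for Rps10, 4.29% for Rpl10, 9.51% for Rpl10a and 14.97% for Rps6, so the level of Rps6 covers a small part of the counts under its name. Of the 85 members, 50 overlapped another annotated gene.

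Total counts over a table lay near the threshold of 100 for a few genes, and 3 were members in 1 fraction alone. Rpl32l, a processed pseudogene inside Map7, was a member in CD45- cells alone, with 152 counts on day 3 and 125 on day 7, against 69 and 66 in CD45+ cells. Rps4l, a transcribed pseudogene, had 197 and 199 counts in CD45+ cells and 66 and 24 in CD45- cells. Rpl3l, the striated-muscle paralog of Rpl3, had 143 and 141 counts in CD45+ cells and 8 and 5 in CD45- cells. Rpl24 stayed outside with 53 to 71 counts per table, and Rpl22l1 was inside in every table with 159 to 419 counts. Rpl10l, the germline paralog of Rpl10, and Rpl39l, the paralog of Rpl39, also stayed outside, with 0 or 1 counts and 35 to 82 counts per table.

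Together the members took 2.60% to 6.66% of the counts of a library. In CD45+ cells on day 3, the 4 CON libraries were at 4.32%, 6.08%, 5.73% and 6.06%. The 6 HT libraries were at 4.16%, 4.14%, 2.60%, 4.13%, 4.31% and 3.94%. Every HT value lay below every CON value, although the highest HT value, 4.31%, was next to the lowest CON value, 4.32%. The 7 ABS libraries ran from 3.30% through a median of 4.56% to 5.73%, and overlapped both other groups.

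The ratio of the HT median share to the CON median share was 0.702 in these cells, and 0.734 after the rRNA gene and the mitochondrial genes were left out of the totals. The ABS ratio was 0.773, and 0.844 after the same step. The rRNA gene took 6.99% to 9.44% of counts in CON, 7.17% to 11.7% in HT and 7.88% to 16.0% in ABS libraries, and the ABS library with 16.0% was the one with a member share of 3.30%. Its part in the shares was not tested beyond leaving it out of the totals. In the other 3 tables the ratios lay between 0.922 and 1.13. The highest was HT over CON in CD45- cells on day 7, where the 3 HT libraries were at 4.78% to 5.39% and the 11 CON libraries at 3.89% to 5.50%.

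**Figure D1:**
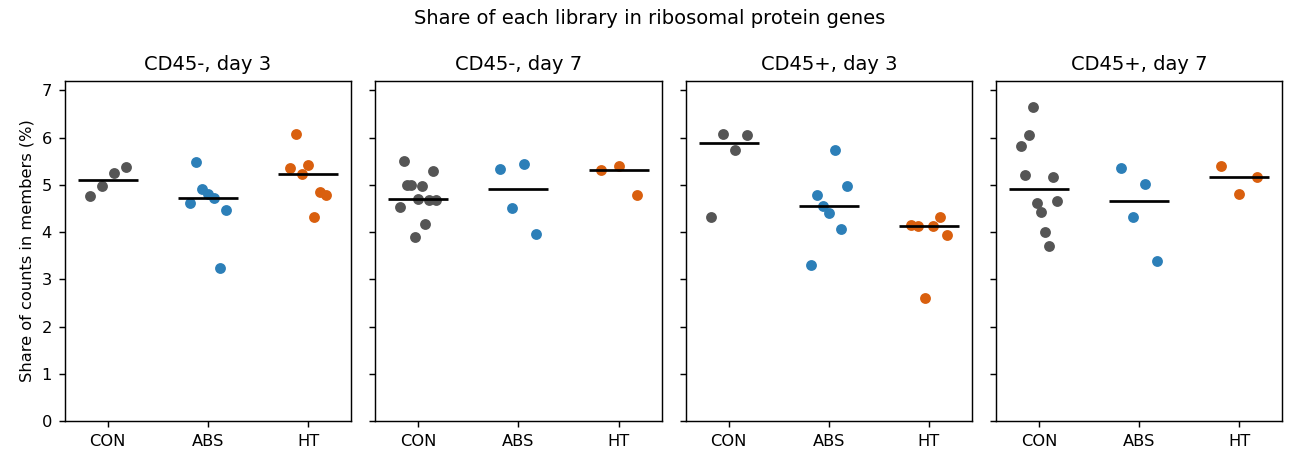
Share of each library's counts in members of the ribosomal protein set (vertical axis, percent), for CON, ABS and HT libraries of the 4 tables. Points are libraries and lines are group medians. In CD45+ cells on day 3 the HT libraries lie at 2.60% to 4.31% and the CON libraries at 4.32% to 6.08%.

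In CD45+ cells on day 3, 81 of the 83 members tested had a fitted level below CON in HT, with a median log2 fold change of -0.35, while 50.8% of the 10264 genes tested were below CON and their median was -0.01. Single members passed the test rarely. edgeR's quasi-likelihood test called 1 of 83, Rpl15, and called 7.79% of all genes tested, with 1.59% of all genes called as lower in HT. An unadjusted p under 0.05 was given to 28 members (33.7%), against 23.9% of all genes tested. The subunits were alike in direction, with 47 of 49 tested 60S members lower (median -0.34) and 34 of 34 tested 40S members lower (median -0.42). Of the 2 members fitted higher in HT, Rplp2 was at 0.03. These differences are those of summed populations, and fewer cells of a type cannot be told apart from less RNA per cell.

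**Figure D2:**
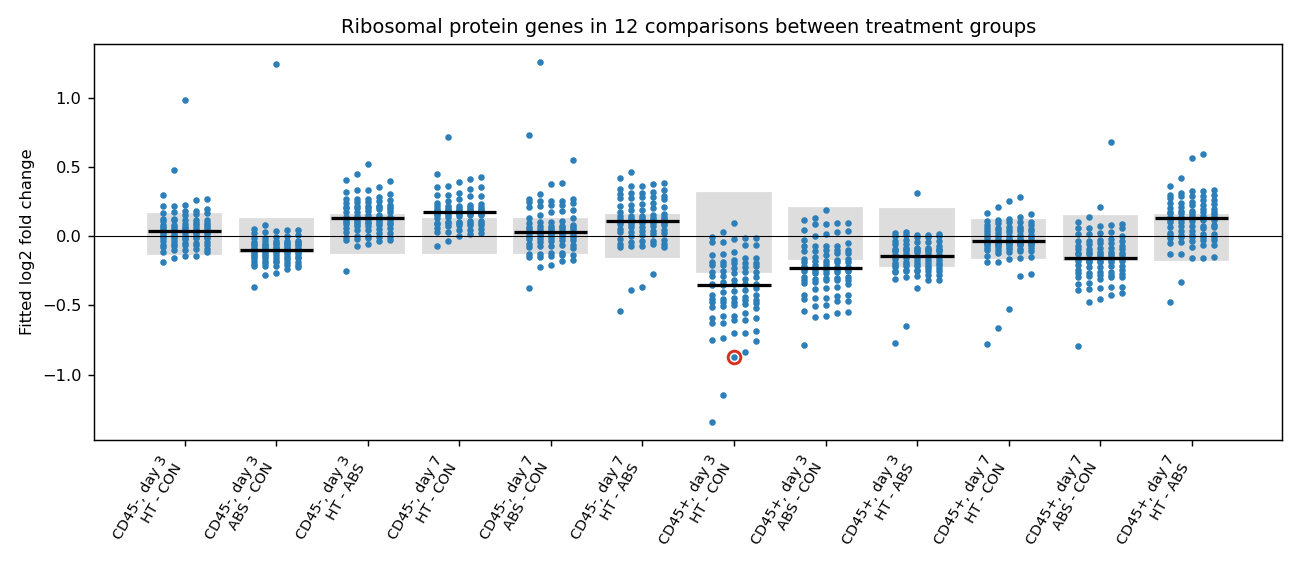
Fitted log2 fold change of each tested member (points) in the 12 comparisons between CON, HT and ABS within a table. Black lines are member medians, grey bars span the middle 50% of all genes tested, and the ring marks Rpl15, the member called. The member median is lowest in CD45+ cells on day 3 for HT against CON, at -0.35.

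Rpl15, a 60S core protein, was at 30.2, 31.1, 38.2 and 51.1 TMM-scaled CPM in the 4 CON libraries. The 6 HT libraries were at 16.8, 16.8, 23.6, 26.2, 22.6 and 18.2. The groups did not overlap, and Rpl15 fell by 0.88 on the log2 scale (SE 0.24, edgeR adjusted p = 0.0266), from 37.6 ± 9.67 (SD, n = 4) to 20.7 ± 3.97 (SD, n = 6). The call held in 6 of 10 fits with a library left out. It was lost without CON replicate 3 (adjusted p = 0.0713), CON replicate 4 (0.150), HT replicate 2 (0.0585) and HT replicate 6 (0.0515). The gene lies at chr14:18267823-18271391 on the minus strand of GRCm38 and overlaps Nkiras1 on the other strand, and the strand setting of the counting is not given in the sources used here.

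Rps6 had the largest fitted difference among members. Its CON libraries were at 10.98, 29.1, 25.8 and 42.2 CPM and its HT libraries at 4.19, 18.2, 15.7, 6.71, 7.31 and 13.8 CPM. The lowest CON library lay inside the HT range, and the log2 fold change of -1.34 (SE 0.51) did not pass the test (adjusted p = 0.107). With its "-ps" lines added, the difference was -0.62 (SE 0.19) and passed (adjusted p = 0.0463).

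Rpl35a, a 60S protein singled out after its values were seen, was at 128, 428, 273 and 398 CPM in CON libraries and at 132, 273, 165, 147, 154 and 163 CPM in HT libraries. CON replicate 1 lay below all 6 HT libraries, CON replicate 3 equalled the highest of them, and the other CON libraries lay above. The difference was -0.84 (SE 0.35, adjusted p = 0.152). Rplp2 was at 1021, 1057, 1000.0 and 940 CPM in CON and between 831 and 1299 CPM in HT, around a median of 983, and the groups overlapped over the whole CON range (0.03, SE 0.15, adjusted p = 0.931).

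**Figure D3:**
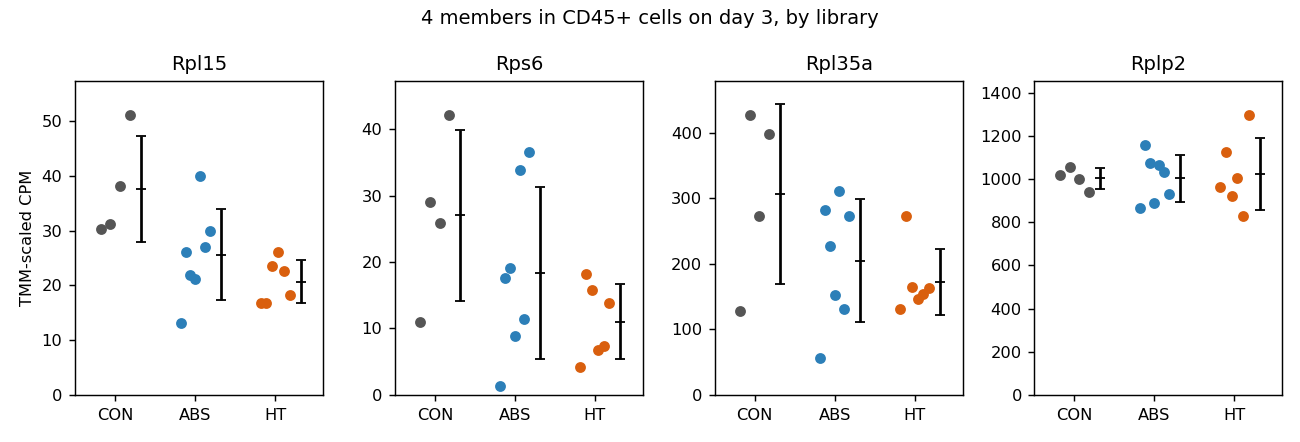
TMM-scaled CPM (vertical axes, starting at 0) of Rpl15, Rps6, Rpl35a and Rplp2 in each CD45+ library of day 3, with the group mean and SD beside the points. Rpl15 in HT (16.8 to 26.2) lies below CON (30.2 to 51.1), whereas Rplp2 overlaps in all groups.

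Rps15a, a 40S protein, and Rpl19, a 60S protein, were the only other members whose HT and CON libraries did not overlap, and both were named after their values were seen. That made 3 of 83 members, against 6.77% of all genes tested. Rps15a was at 775 to 1191 CPM in CON and 603 to 747 CPM in HT (-0.51, SE 0.16, adjusted p = 0.0542). Rpl19 was at 82.2 to 100.45 CPM in CON and 55.9 to 79.6 CPM in HT (-0.45, SE 0.15, adjusted p = 0.0620).

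Members with known roles differed in the size of their fitted difference, and none of the following passed the test. The stalk proteins, which recruit elongation factors, were at -0.19 for Rplp0, -0.26 for Rplp1 and 0.03 for Rplp2. The 5S rRNA partners Rpl5 and Rpl11 were at -0.50 (SE 0.24) and -0.35 (SE 0.16). Rps27a, which is made as a fusion with ubiquitin, was at -0.75 (SE 0.39). Rps3, which lines the mRNA entry channel, was at -0.49, Rpl13a, which also takes part in interferon-dependent translational control, at -0.48, and Rps19, the gene most often mutated in Diamond-Blackfan anemia, at -0.26. Rpl41 and Rpl38 were at -0.34 and -0.18. Among paralog pairs, Rpl22 was at -0.34 and Rpl22l1 at -1.15 (SE 0.46, adjusted p = 0.133), Rps27 at -0.60 and Rps27l at -0.37, Rpl7 at -0.19 and Rpl7l1 at -0.17, and Rps4x at -0.45 and Rps4l at -0.48. Rpl3 was at -0.43, Rpl39 at -0.52 and Rpl10 at -0.35.

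Rpl22l1 rested on few reads, with 59 counts in the 4 CON and 28 counts in the 6 HT libraries. The 5 most abundant members were at -0.25 for Rpl37, -0.22 for Rps20, -0.27 for Rps29, -0.26 for Rplp1 and -0.31 for Rps21.

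Other genes of ribosome production were read from pathway lists in the same comparison. Over all genes tested there, 50.8% were fitted lower, 7.79% passed and 1.59% passed as lower. Of 20 genes for elongation factors and other TOP mRNAs, all 20 were fitted lower (median -0.27) and 1 passed, Hnrnpa1, an RNA-binding protein of splicing (-1.10, SE 0.32, adjusted p = 0.0345). Of 45 ribosome assembly and nucleolar genes, 34 were fitted lower (median -0.12) and 2 fell, Rpf2, which brings the 5S particle into the large subunit (-0.79, SE 0.19, adjusted p = 0.0157), and Utp14a, which acts in small subunit processing (-0.53, SE 0.15, adjusted p = 0.0342). Among 14 RNA polymerase I genes, 0 passed.

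Of 21 regulators of ribosome synthesis, 1 passed, while 7.79% of all genes tested passed and 1.59% passed as lower. Mdm2, the partner of Rpl5 and Rpl11, rose by 0.83 on the log2 scale (SE 0.19, adjusted p = 0.00905). Of 7 snoRNA host genes, Snhg15 fell (-0.69, SE 0.19, adjusted p = 0.0265). Mitochondrial ribosomal proteins, which build a separate ribosome, were fitted lower for 64 of 70 genes (median -0.23), against 50.8% of all genes. Of these, Mrps17 (-0.67, adjusted p = 0.0175) and Mrpl27 (-1.21, adjusted p = 0.0466) fell. The 3 tested ribosomal proteins outside the symbol rule included no call.

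Markers of several cell types passed the test in the same comparison, in which 7.79% of all genes passed and 1.59% passed as lower. The summed level of 12 neutrophil genes was 452 to 3018 CPM in CON and 1781 to 28480 CPM in HT, and 6 of 9 tested rose. That of 10 T cell genes was 1833 to 2429 CPM in CON and 446 to 1621 CPM in HT, and 4 of 10 tested fell. That of 6 cell cycle genes was 742 to 939 CPM in CON and 215 to 766 CPM in HT, and 2 of 6 tested fell. Erythroid genes summed to 71.1 to 995 CPM in CON and 62.8 to 7290 CPM in HT, and 0 of 4 tested passed. The melanoma genes summed to 188 to 439 CPM in CON and 193 to 479 CPM in HT. The part of cell composition in the levels of the members was not tested.

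The count of calls depended on the settings, while the direction did not. Members below CON numbered 74 to 83 in the 9 other settings and the 10 fits with a library left out, with the fewest without HT replicate 3. Scaling by library totals alone moved the median of all genes to -0.22 and that of the members to -0.57, and 21 members then passed, all lower, with 6.46% of all genes called as lower. Without a filter on low counts, 18 passed as lower, with 1.19% of all genes called as lower. DESeq2 called 4, Rpl15, Rpl19, Rps15a and Rps26, all lower, and called 1.51% of all genes as lower.

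In ABS tumors of the same cells and day, 72 of 83 members were fitted below CON (median -0.23), against 48.1% of all genes, and 0 passed, as did 0.0% of all genes tested. DESeq2 also called 0, and 3 members had an unadjusted p under 0.05, against 7.76% of all genes. Rpl15 was at 13.1 to 39.9 CPM (median 26.1) in the 7 ABS libraries and overlapped CON (-0.56, SE 0.22, adjusted p = 0.579). HT and ABS were compared directly, and 74 of 83 members were fitted lower in HT (median -0.14), against 53.9% of all genes. Of the members 0 passed, against 5.44% of all genes tested. DESeq2 called 0 there, and 1 member, Rpl19, had an unadjusted p under 0.05 (-0.31, SE 0.13, adjusted p = 0.175), against 18.7% of all genes. HT and ABS share the CON libraries in the comparisons above.

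Whether the HT difference on day 3 was unequal between fractions was tested as an interaction. The difference was lower in CD45+ than in CD45- cells for 80 of 84 members (median -0.35) and 51.2% of all genes, 0 members passed, and 1.92% of all genes tested did. An unadjusted p under 0.05 was given to 16 members (19.0%) and 16.1% of all genes, and DESeq2 called 0 members. The smallest p among members was that of Rpl15, at -1.02 (SE 0.33, adjusted p = 0.0997). On day 7 it was lower for 74 of 85 (median -0.17) and 52.5% of all genes, with 0 calls by edgeR, where 0.0% of all genes passed, 0 by DESeq2 and 2 unadjusted p under 0.05, against 4.84% of all genes.

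Between days, the HT difference in CD45+ cells was higher on day 7 than on day 3 for 79 of 84 members (median 0.37), and 49.0% of all genes were lower. Of the members, 0 passed by edgeR or DESeq2, 2.68% of all genes passed, and 8 members had an unadjusted p under 0.05, against 15.8% of all genes. Rpl19 had the smallest p (0.54, SE 0.18, adjusted p = 0.0943). In CD45- cells it was higher for 62 of 83 members (median 0.14), while 50.9% of all genes were lower, with 0 calls by either tool, 0.0% of all genes and 1 unadjusted p under 0.05, against 6.02% of all genes. The direction in CD45- cells was not kept under every setting tried. A difference of the HT effect between fractions or days was thus not shown for any single member in these fits.

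For HT against CON in CD45- cells on day 3, the median log2 fold change was 0.03, 30 of 83 members were fitted lower, against 47.9% of all genes, 0 passed, and 0.0916% of all genes did. No member had an unadjusted p under 0.05, against 10.6% of all genes, and DESeq2 called 0. ABS was fitted below CON for 74 of 83 members (median -0.10) and 49.9% of all genes, with 0 calls by edgeR or DESeq2, 0 unadjusted p under 0.05, against 5.19% of all genes, and 0.0% of all genes called. HT was fitted above ABS for 72 of 83 (median 0.13), while 48.0% of all genes were lower, 0 passed by either tool, 0.147% of all genes did, and 8 members had an unadjusted p under 0.05, against 13.5% of all genes. Rps3a1, a 40S protein, had the smallest p of these, at 194 ± 16.7 CPM in HT (SD, n = 7) and 141 ± 35.2 CPM in ABS (SD, n = 7; log2 fold change 0.45, SE 0.13, edgeR adjusted p = 0.137).

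In CD45- cells on day 7, HT was fitted above CON for 80 of 82 members (median 0.17), while 49.3% of all genes were lower, with 0 calls by edgeR or DESeq2 against 0.0% of all genes, and 5 unadjusted p under 0.05, against 6.08% of all genes. The direction of HT and of ABS against CON in these cells was not kept under every setting tried. Rpl36al, the autosomal copy of Rpl36a, was the 1 member whose groups did not overlap, against 0.537% of all genes, at 61.8 ± 2.02 CPM in HT (SD, n = 3) and 50.1 ± 5.59 CPM in CON (SD, n = 11; 0.29, SE 0.10, edgeR adjusted p = 0.604). ABS was fitted above CON for 51 of 82 (median 0.03), while 51.4% of all genes were lower, 0 passed by either tool, 0.291% of all genes did, and 7 unadjusted p were under 0.05, against 9.56% of all genes. Rpl22l1 had the largest fitted difference there, at 10.1 ± 5.197 CPM in ABS (SD, n = 4) and 4.07 ± 3.07 CPM in CON (SD, n = 11; 1.26, SE 0.43, edgeR adjusted p = 0.264). HT was fitted above ABS for 66 of 82 (median 0.11), while 50% of all genes were lower, with 0 calls by either tool, 0.0% of all genes and 3 unadjusted p under 0.05, against 6.74% of all genes. In these cells 7 fibroblast genes summed to 17.3 to 698 CPM in CON, 86.9 to 4038 in HT and 72.9 to 2497 in ABS. The 9 melanoma genes summed to 33769 to 40360, 37600 to 38908 and 35691 to 40249 CPM. The part of cell composition here was not tested.

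In CD45+ cells on day 7, HT was fitted below CON for 53 of 84 members with a median of -0.03, against 53.0% of all genes, 0 passed by edgeR or DESeq2, 0.0% of all genes did, and no unadjusted p was under 0.05, against 3.15% of all genes. ABS was fitted below CON for 69 of 84 (median -0.16), against 51.5% of all genes, and HT above ABS for 64 of 84 (median 0.13), while 51.9% of all genes were lower. In both, 0 members passed by either tool, as did 0.0% of all genes, and unadjusted p under 0.05 numbered 1 and 0, against 7.45% and 2.69% of all genes. Outside CD45+ cells on day 3, no gene of the lists for ribosome production passed in a comparison of HT, ABS and CON.

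The members differed widely in how far libraries of a group lay apart. The SD between libraries of a group, on log2(TMM-scaled CPM + 0.5), ran from 0.10 to 1.18 over 82 members in CD45- cells (median 0.26) and from 0.14 to 1.06 in CD45+ cells (median 0.31). The other genes at or above the mean level of the lowest member, Rpl22l1, had medians of 0.25 (9486 genes) and 0.36 (9878 genes). Most members lay far above that level, so these genes were not matched to the members in level. Rps6, Rpl22l1, Rps23 and Rpl35a were among the widest in both fractions, and Rpl7, a 60S protein, was among the narrowest in both, at 0.12 and 0.14.

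The order was much alike in the 2 fractions. Of the 15 widest members of each, 13 were shared (Rpl10, Rpl17, Rpl22l1, Rpl32, Rpl35, Rpl35a, Rpl7a, Rps16, Rps2, Rps23, Rps27, Rps27a and Rps6), and of the 15 narrowest 11 were (Rpl13, Rpl14, Rpl6, Rpl7, Rpl7l1, Rplp0, Rplp2, Rps14 and Rps15 among them). Across the 82 members, which are not independent and share libraries within a fraction, Pearson's r between the SDs was 0.85 and Spearman's rho 0.87. Counting error alone gave an SD of 0.38 for Rps6 and 0.66 for Rpl22l1 in CD45+ cells, and of 0.09 for Rpl35a. A single component held 64.1% of the variance of the members within groups over 36 CD45- libraries and 74.0% over 34 CD45+ libraries.

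**Figure D4:**
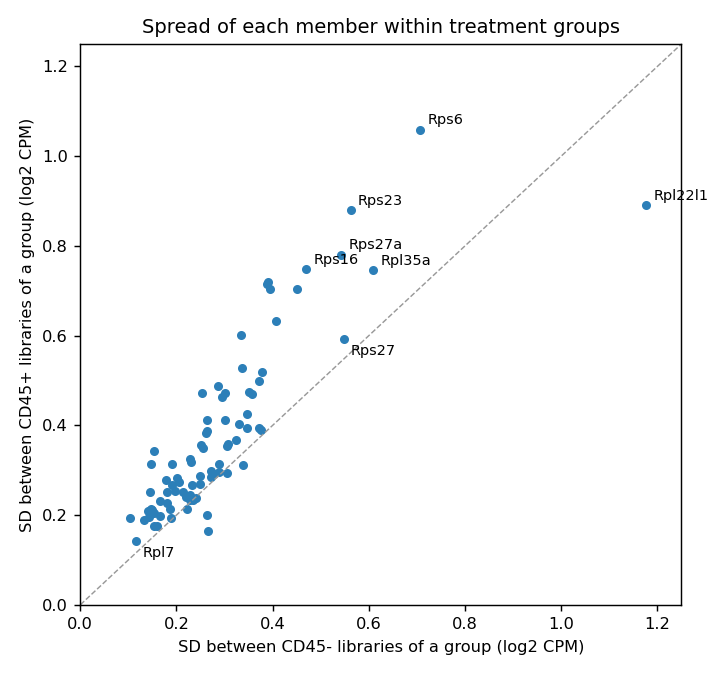
SD between libraries of a group on the log2 scale for each of 82 members, in CD45- (horizontal axis) and CD45+ libraries (vertical axis). The dashed line marks equal spread. Rps6 and Rpl22l1 lie at the upper right, above 0.8 in CD45+ cells, and Rpl7 at the lower left, at 0.12 and 0.14.

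In CD45+ cells on day 3, fitted differences were further from 0 among members with the widest spread in CD45- cells, whose errors were wider too. For HT against CON, the 15 widest had a median of -0.70 with 15 of 15 lower, the 15 narrowest -0.17 with 14 of 15 lower, and the other 52 members -0.35 with 51 lower. The median SE of these differences was 0.35, 0.16 and 0.19. For ABS against CON the medians were -0.46, -0.07 and -0.23. On day 7 no such order was seen for HT against CON, with medians of -0.05, -0.05 and -0.02, and for ABS against CON they were -0.37, 0.02 and -0.17. As these sets were chosen on CD45- libraries, the CD45+ libraries took no part in the choice, but the order of spread was shared by the fractions and no test was run over the sets. The library CON replicate 1 stood apart from the other CON libraries in this: its 15 widest members summed to 3220 TMM-scaled CPM, against 6459, 4956 and 6232 in the others, while its 15 narrowest summed to 9575, against 9542, 9678 and 9391. It had the smallest depth of the 4, with 1039007 counts, and an rRNA share of 9.44%, against 6.99% to 7.50% in the others. In the 6 HT libraries the widest set summed to 3194 to 4641 CPM and the narrowest to 7039 to 10417 CPM. Whether the rRNA share or RNA quality had a part in this was not tested. In reverse, sets chosen on CD45+ libraries were read in CD45- cells, with medians given for the widest, narrowest and other members. On day 3 they were 0.12, 0.02 and 0.02 for HT against CON, and -0.09, -0.09 and -0.10 for ABS against CON. On day 7 they were 0.29, 0.15 and 0.16 for HT, and 0.25, -0.002 and 0.01 for ABS.

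The fractions were compared within each treatment and day, with both tables fitted together. On day 3 in CON, 34 of 84 members passed (40.5%), against 65.2% of all genes tested, with 30 higher (34.5% of all genes) and 4 lower (30.6%) in CD45+ cells and a median log2 fold change of 0.34. In HT on day 3, 36 of 84 passed, against 76.9%, with 19 higher (39.9% of all genes) and 17 lower (37.0%) and a median of -0.04. In ABS, 41 of 84 passed, against 75.2%, with 33 higher (39.8%) and 8 lower (35.3%) and a median of 0.24. On day 7 in CON, 57 of 85 passed, against 80.4%, with 49 higher (42.1%) and 8 lower (38.3%) and a median of 0.33. In HT on day 7, 25 of 85 passed, against 65.6%, with 18 higher (34.3%) and 7 lower (31.3%), and in ABS 30 of 85, against 69.5%, with 19 higher (35.9%) and 11 lower (33.7%), and both medians were 0.14. The share called was below that of all genes in each of the 6 comparisons. The calls as higher include Rpl3l and Rps4l each time, which became members through their CD45+ counts alone.

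The direction of these differences rests on the scaling. Scaled by library totals, the median of all genes moved to between -0.14 and -0.39, and the members of day 3 HT were then lower in CD45+ cells for 72 of 84. Calls higher and lower in CD45+ cells then numbered 16 and 8 in CON, 3 and 47 in HT and 18 and 16 in ABS on day 3, and 28 and 18, 6 and 11, and 8 and 19 on day 7. The higher ones include Rpl3l in each comparison and Rps4l in 5. Of all genes, library totals called 29.9% to 36.1% higher and 35.8% to 49.2% lower over these comparisons. Over the 6 comparisons, 12 of the 82 members of both fractions were called higher in CD45+ cells in all 6, against 28.7% of all genes tested in each. They include Rps14, Rps20, Rpl13, Rpl18, Rplp0, Rpl11, Rplp2, Rps24, Rpl36a and Rpl17. Called lower in all 6 were 4, against 24.6%. Rpl3l and Rps4l were also called higher in all 6, but became members through their CD45+ counts alone, so their higher level there is a description. With library totals, no member of the 12 was still called in all 6, whereas DESeq2 kept each of them. The 4 lower ones were called in all 6 with either. There were 16 members called in none of the 6, and 0 called in opposite directions.

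Rplp0 and Rplp2, a pair of the 3 stalk proteins, were higher in CD45+ cells in all 6, by 0.55 to 0.76 and 0.54 to 0.81 on the log2 scale. On day 3, Rplp0 was at 945, 949, 1197 and 1144 CPM in the CON libraries of CD45+ cells and at 573, 614, 651 and 657 CPM in those of CD45- cells, and these did not overlap (0.76, SE 0.14, adjusted p = 7.2e-06). Rplp1, the third stalk protein, lay the other way, at -0.44 (SE 0.16, adjusted p = 0.0116) in HT on day 3 and -0.35 (SE 0.11, adjusted p = 0.0041) in CON on day 7. Rpl36a was at 313, 525, 518 and 565 CPM in CON libraries of CD45+ cells and 187, 245, 216 and 212 CPM in those of CD45- cells (1.16, SE 0.25, adjusted p = 0.00010). Rpl17 was at 236, 341, 278 and 368 CPM against 110, 107, 134 and 96.3 CPM (1.45, SE 0.30, adjusted p = 5.7e-05). Neither pair of groups overlapped.

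The 4 members lower in CD45+ cells were Rps19bp1 (-1.65 to -1.14), Rps27l (-1.52 to -1.06), Rpl36 (-0.96 to -0.61) and Rpl7l1 (-0.68 to -0.35). Rps27l, a p53-induced paralog of Rps27, was at 95.6, 120, 113 and 159 CPM in the day 3 CON libraries of CD45+ cells. In CD45- cells it was at 240, 234, 286 and 290 CPM, and the groups did not overlap (-1.10, SE 0.19, adjusted p = 3.2e-06). On day 7 the CON libraries were at 82.7 to 156 CPM (median 125, n = 10) in CD45+ cells and 229 to 307 CPM (median 259, n = 11) in CD45- cells (-1.06, SE 0.10, adjusted p = 6.8e-13). Rps27 itself lay the other way in CON, at 0.98 (SE 0.37, adjusted p = 0.0195) on day 3 and 0.76 (SE 0.21, adjusted p = 0.0016) on day 7, and in HT on day 3 it was at -0.09 (SE 0.29, adjusted p = 0.77). Its day 3 CON libraries were at 553, 2288, 1292 and 2007 CPM in CD45+ cells and 734 to 860 CPM in CD45- cells, with CON replicate 1 below all 4 CD45- libraries. Rps19bp1 was at 38.4, 45.0, 45.8 and 38.9 CPM against 83.3, 103, 81.2 and 106 CPM on day 3 (-1.15, SE 0.18, adjusted p = 8.2e-07).

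**Figure D5:**
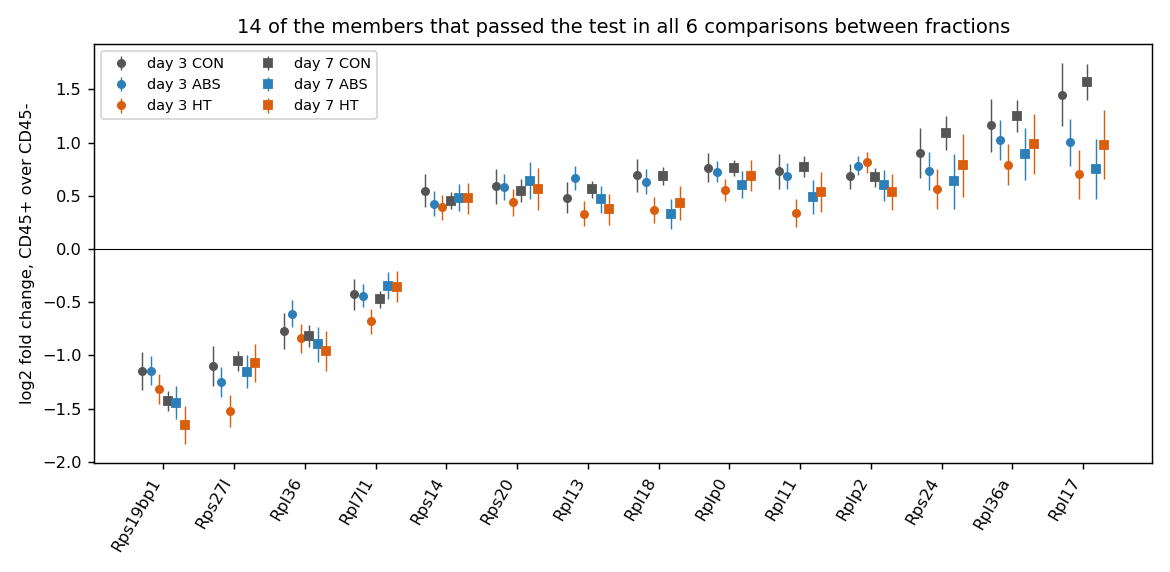
Fitted log2 fold change of CD45+ over CD45- cells, with SE bars, for 10 of the 12 members called higher and the 4 called lower in all 6 comparisons, leaving out Rpl3l and Rps4l. Circles are day 3, squares day 7, and colors the treatment groups. Rps19bp1 and Rps27l lie below -1 in each comparison, and Rpl17 reaches 1.57.

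Rpl7, whose paralog Rpl7l1 is a factor of ribosome assembly, was fitted higher in CD45+ cells in all 6 (0.15 to 0.33) and passed in all but HT on day 7. Rpl5 and Rps19 passed as higher in CON and ABS on day 3 and in CON on day 7, at 0.80 (SE 0.17) for Rpl5 and 0.44 (SE 0.10) for Rps19 in the latter. Rpl13a passed as lower in HT on day 3 (-0.90, SE 0.17, adjusted p = 9.6e-06) and in all 3 groups of day 7. Its parent line held 53.8% of the counts of its family. With its "-ps" line added, it passed as lower in 0 of the 6 comparisons and as higher in 1. Rps27a, Rpl38 and Rpl41 passed in none. Rps6 passed in CON on day 7 (1.33, SE 0.30, adjusted p = 0.00011).

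Members near the floor are given by their counts. Rpl3l and Rps4l passed the threshold through CD45+ cells alone, so no ratio is drawn from their counts. Rpl3l had 100 counts in the 10 CON libraries of CD45+ cells on day 7 and 5 in the 11 of CD45- cells, and CD45- cells had 0 in HT and ABS on that day. Rps4l had 102 counts against 2 in CON on day 7. In HT on day 3 it had 54 counts against 54, and 1 CD45- library held 31 of them. Rps4l overlaps Tmtc1 on the other strand. The counts of Rpl22l1, a member in every table, were divided by the totals of the group, and the ratio of CD45+ to CD45- cells is given with an exact 95% interval that covers counting error only. It was above 1 in CON on both days, at 1.79 (1.18 to 2.73) and 1.64 (1.26 to 2.14), and below 1 in HT on day 3, at 0.326 (0.210 to 0.489), and in ABS on both days, at 0.458 and 0.513. In HT on day 7 it was 0.711 (0.437 to 1.14), an interval that spans 1. In CON on day 3, 1 library held 28 of the 59 CD45+ counts and 1 held 22 of the 41 CD45- counts. In HT on day 3, 1 library held 73 of the 163 CD45- counts. In the fit, Rpl22l1 passed in CON on day 7 alone (0.94, SE 0.37, adjusted p = 0.0205).

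Among genes that build ribosomes, calls as lower in CD45+ cells outnumbered calls as higher in each of the 6 comparisons, in which 30.6% to 38.3% of all genes were called lower and 34.3% to 42.1% higher. Of 45 assembly and nucleolar genes, 22 to 34 were lower and 2 to 5 higher over the 6 comparisons, and 25 to 40 and 0 to 2 with library totals. Nop2, which methylates large subunit rRNA, was at -1.60 (SE 0.22) in CON on day 3 and -1.32 (SE 0.09) on day 7, and Wdr12 at -1.13 and -1.30. Of 14 RNA polymerase I genes, 7 to 11 were lower and 1 to 3 higher, and 7 to 13 and 1 to 2 with library totals, with Polr1a, the largest subunit, at -1.25 (SE 0.21) and -1.20 (SE 0.08) in CON. Of 72 to 74 mitochondrial ribosomal proteins, 39 to 52 were lower and 2 to 8 higher, and 43 to 67 and 0 to 4 with library totals, with Mrps25 at -1.46 and -1.51 in CON. Npm1, a nucleolar chaperone of ribosome assembly, was at -0.70 and -0.95 in CON. Of the ribosomal proteins outside the symbol rule, Fau (1.30 and 1.34) and Rpsa (0.72 and 0.60) were higher. The cells of the 2 fractions differ in type and in cell cycle genes, of which 3 of 6 were lower in CD45+ cells in CON on day 3.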

How the data were processed

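Tumors were taken 3 or 7 days after ablation, and 70 RNA libraries were made from sorted CD45- or CD45+ cells. The deposited values are counts per gene, which the authors made from QuantSeq 3′ reads with Trim Galore 0.5.0, STAR 2.6.0 and GRCm38, collapsing molecular identifiers before counting with featureCounts. Strand setting and treatment of reads with several matches are not given in the sources used here. An unnamed line of column totals in 2 of the 4 tables (100% of the sum) was left out.

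Counts were tested with edgeR 4.0.16 (R 4.3.3), TMM factors, filterByExpr (minimum count 10, total 15) and the quasi-likelihood test, with Benjamini-Hochberg adjustment over all genes and a threshold of 0.05, after the scripts were tested on simulated data. Each table was fitted with its 3 groups, and joint fits over fractions or days gave the other comparisons. Levels are TMM-scaled CPM from the fit of the comparison. The SE of an edgeR log2 fold change is its absolute value divided by the square root of the F statistic of its test. DESeq2 1.42.0, other scalings and filters, the replicate block and each library left out were alternatives. Adding "-ps" lines to their parent was chosen after seeing the data.

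Libraries held 887798 to 3820705 counts (median 2105674), and intervals cover counting error only. Members were named by role (stalk proteins, paralog pairs, and Rps6, Rpl5, Rpl11, Rps27a, Rps19, Rps3, Rpl13a, Rpl38 and Rpl41), as the 5 most abundant, or as up to 3 called members per direction with the largest change, and up to 2 called genes per pathway list. Values of some single members are not reported here, but counts and medians include them. The members and lists were chosen with earlier results of these data known. Python 3.11.15 with pandas 2.3.3, numpy 2.4.6, scipy 1.17.1 and matplotlib 3.10.9 was used for summaries and plots.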

Additional observations from a re-analysis of the deposited data

Results flagged for a closer look

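Of 54 groups of libraries tested for a value far from the others, 3 held one, and chance gives about 1 in 20. In CD45+ cells on day 3, HT replicate 3 had the lowest share of counts in the members, 2.60%, against 3.94% for the next library. In the same group, Rpl35a was at 273 CPM in HT replicate 2 and at 165 CPM in the next library. In CD45- cells on day 3, Rplp0 was at 827 CPM in HT replicate 7 and at 649 CPM in the next library.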

How the results depend on the processing

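For HT against CON in CD45+ cells on day 3, 1 member passed, and the count was 21 with library totals, 4 with DESeq2, 18 without a filter on low counts, 10 with the replicate block, 3 with "-ps" lines summed, and 0 to 3 with a library left out (0 without HT replicate 6, CON replicate 3 or CON replicate 4, and 3 without CON replicate 1). All of these were lower in HT except where a count was 0. The share of all genes called moved with the setting too, and is not given for each count in this part. The counts here thus describe the settings and no trait of the members. In comparisons with 0 calls, dropping the filter gave 1 call for HT against ABS in CD45- cells on day 3 (Rps3a1), 2 for ABS against CON in CD45- cells on day 7 (Rpl10 and Rpl22l1), 1 each for HT against ABS in CD45+ cells on day 3 and ABS against CON on day 7 (Rps6), 1 for the day difference in CD45+ cells (Rpl35a) and 6 for the fraction difference of the HT effect on day 3. Library totals gave 1 in the last (Rpl15) and 1 in the day difference (Rpl19), and summed "-ps" lines gave 1 in the fraction difference (Rps6). In HT on day 7, the fractions gave 25 calls, 15 without a filter, and 15 to 22 with a library left out, with 15 without CD45- replicate 1. Under library totals, 26 of 84 differences between fractions in HT on day 3 turned from higher to lower, 7 of them called in the main fit. Of the members called in all 6 comparisons 4 did, Rps14 (-0.015), Rpl13 (-0.0683), Rpl18 (-0.0457) and Rpl11 (-0.0606). In the other comparisons between fractions, 9 to 22 members turned from higher to lower. The cause was not tested. Of all member counts, those above included, 300 of 306 with a library left out and 173 of 188 under other settings stayed within 1.5 times. Most of the 306 come from comparisons with 0 calls that stayed at 0, so this share says little about the comparisons with calls. Same-numbered libraries correlated above 0.1 in 21 of 49 pairs within tables (-0.39 to 0.47) and 11 of 34 between fractions (-0.02 to 0.28). Between fractions, the pairs below 0 were all in CON on day 7. Libraries of unlike number were not correlated, so these values cannot show whether the numbers pair libraries. The main fits did not use the numbers as pairs. HT on day 3 and CON on day 7 differ in size between the fractions, so a number need not name the same tumor there. Besides the 10 calls, the replicate block moved the members fitted lower than CON in CD45- cells on day 7 from 2 to 47 of 82 in HT and from 31 to 57 in ABS, on day 3 from 30 to 11 of 83 in HT and from 74 to 44 in ABS, and in CD45+ cells on day 7 from 53 to 79 of 84 in HT. The day difference in CD45- cells went from 21 to 64 of 83 lower. Unadjusted p under 0.05 for ABS against CON in CD45+ cells went from 3 to 24 on day 3 and from 1 to 34 on day 7. On day 7 numbers above 4 are held by CON libraries alone, so the block sets HT and ABS against few of them. Counting error alone gave an SD of 0.66 for Rpl22l1 in CD45+ cells, where the SD between libraries was 0.89, and of 0.38 for Rps6, where it was 1.06.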
